A study of Mus musculus with 8 samples.

Results

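Mitophagy, the removal of damaged mitochondria by autophagy, depends on a small set of proteins that mark mitochondria or tether them to the autophagosome membrane. The transcripts of 10 such factors were examined in mouse platelets: the kinase Pink1, the receptors Bnip3l, Bnip3, Fundc1, Fundc2 and Phb2, the adaptors Sqstm1 and Optn, the deubiquitinase Usp30 and the fission factor Fis1. They were taken by gene symbol from a table of 43548 genes, in which each of the 10 symbols had 1 entry, by a rule that names genes and sets no expression threshold. Most of the encoded proteins act at or on the outer mitochondrial membrane, but PHB2 is a prohibitin of the inner membrane, and SQSTM1 and OPTN are soluble proteins that are recruited from the cytosol.

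In healthy mitochondria, PINK1 is imported and degraded. When import fails, it accumulates on the outer membrane, phosphorylates ubiquitin and activates the ubiquitin ligase Parkin, and adaptors such as OPTN and SQSTM1 then bind the ubiquitin coat. A receptor arm works without ubiquitin: BNIP3L, BNIP3 and FUNDC1 sit in the outer membrane and bind the autophagosome directly, and BNIP3L also clears mitochondria from maturing reticulocytes. Platelets have no nucleus, so their transcripts come from megakaryocytes, and BNIP3L, FUNDC1 and FUNDC2 have been studied as regulators of mitochondrial quality or survival in these cells.

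The study asked how chronically raised TNF-α affects autophagy-related gene expression in megakaryocytes and platelets. RNA came from washed platelets of 4 TNFdARE mice and 4 littermate controls, all at baseline with no treatment and all carrying 1 batch label. TNFdARE mice carry a Tnf allele without the AU-rich elements that shorten the life of its transcript, so TNF-α is overproduced from the native gene in every tissue that expresses it, and the line was backcrossed to C57BL/6J. Controls were littermates without the allele. Mice were 8 to 12 weeks old, with 2 males and 2 females in each group, although the sample descriptions also mention 3 mice per group and older males, and the count and ages of the methods were used here. The labels do not say whether the TNFdARE mice carried 1 or 2 copies of the allele. The deposited values were read as FPKM, fragments per kilobase of transcript, normalized to the mapped total of a library, and the number of reads behind them is unknown. The study's methods name CPM, a unit scaled to a fixed total, in passing for the bulk data, but the columns sum to 46047 to 99470, not to 1 shared total. Every level per kilobase and every comparison of levels between genes below rests on the FPKM reading.

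The libraries differed widely in how many genes they registered. Between 1479 and 2742 genes were above 0 in control mice and between 818 and 4917 in TNFdARE mice, and the RNA AY036118 held from 33.7% to 67.7% of the summed FPKM. All 15 platelet and megakaryocyte markers were detected, with a summed level of 1238 to 1735 FPKM in control mice and 1171 to 1315 FPKM in TNFdARE mice. Of 20 erythroid markers in the table, 17 were above 0, with Klf1, Rhag and Rhd at 0 in all 8 libraries. Their sum was 761 to 2206 FPKM in the controls, against 1115 to 14673 FPKM in TNFdARE platelets. Of 12 neutrophil markers 5 were above 0 in at least 1 library, and of 10 T cell markers 4. Neutrophil markers summed to at most 3.66 FPKM in control mice and 10.3 FPKM in TNFdARE mouse 4. T cell markers summed to at most 1.02 FPKM in control and 1.45 FPKM in TNFdARE mice. S100a8, Csf3r, Cd3d and Cd3e were at 0 throughout. The monocyte and macrophage markers reached 50.3 FPKM, from 2 of 8 genes, with Cd68 and Cd14 at 0, and the B cell markers 25.3 FPKM, from 3 of 9 genes, with Cd79a and Cd79b at 0. Tnf itself was listed at 0 in all 8 libraries, so it gave no check of the genotype. Hprt, which most cells express, was also at 0 in all 8, and Gapdh in 5, so a value of 0 in this table cannot be read as absence of the transcript.

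The 10 genes differed first in how often they were detected. Pink1 and Sqstm1 were above 0 in all 8 libraries, as were 409 genes in the whole table, or 6.23% of the 6566 genes above 0 in any library. Bnip3l was above 0 in 7 libraries, and Fundc2 and Fis1 in 4 each. Optn was above 0 in 2 libraries, Fundc1, Phb2 and Usp30 in 1 each, and Bnip3 in none of the 8. How many of the 10 appeared in a library followed how many genes it registered. TNFdARE mouse 1, TNFdARE mouse 4 and control mouse 1, with 818, 1225 and 1479 genes above 0, each showed 3 of the 10. Control mice 2 and 3, with 2196 and 2302 genes, showed 4, and control mouse 4, with 2742 genes, showed 5. TNFdARE mouse 2, with 3187 genes, showed 6, and TNFdARE mouse 3, with 4917 genes, showed 8. The least and the most complete libraries were thus both from TNFdARE mice. The grid of values by library shows this order.

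**Figure D1:**
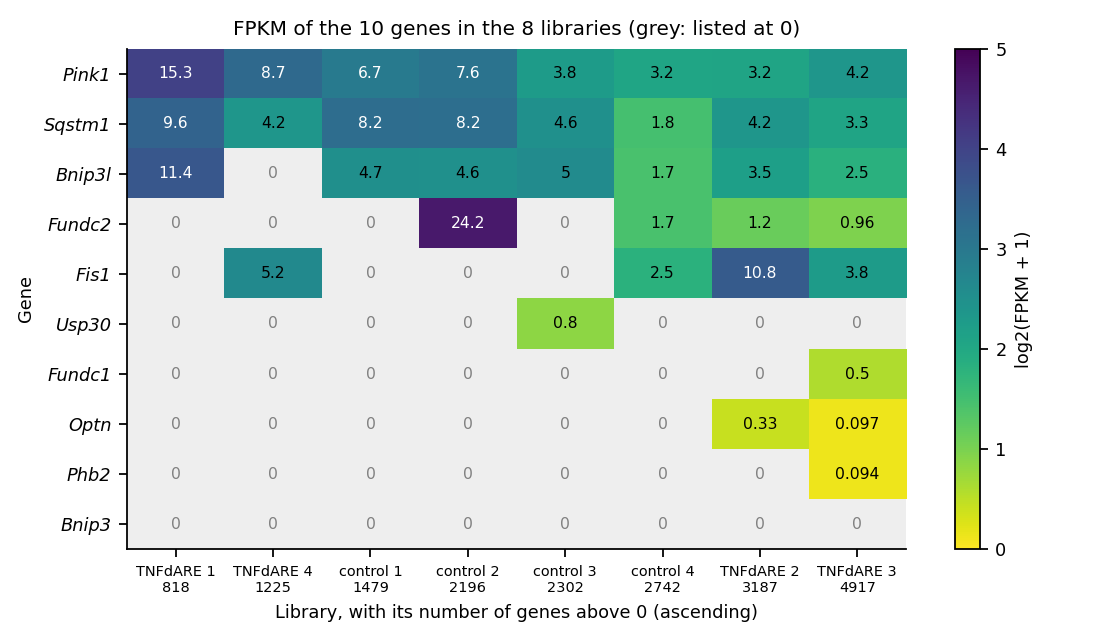
FPKM of the 10 genes in each of the 8 libraries, with libraries ordered from left to right by their number of genes above 0 and color giving log2(FPKM + 1). Pink1 and Sqstm1 are filled in every column, Bnip3 in none, and Optn, Fundc1 and Phb2 appear in the columns with 3187 or 4917 genes above 0. Usp30 appears only in control mouse 3, with 2302 genes above 0, and not in the columns with more genes.

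Pink1 (ENSMUSG00000028756), the kinase that starts the ubiquitin arm, lies at chr4:138313409-138326307 on the minus strand of mm10. Its values were 6.67, 7.57, 3.78 and 3.18 FPKM in control mice 1 to 4 and 15.3, 3.23, 4.16 and 8.73 FPKM in TNFdARE mice 1 to 4. TNFdARE mice 1 and 4 exceeded every control mouse, whereas TNFdARE mice 2 and 3 fell inside the control range. The means were 5.30 ± 2.15 (SD, n = 4) in control and 7.85 ± 5.50 (SD, n = 4) in TNFdARE platelets. On the log2(FPKM + 1) scale the difference, TNFdARE minus control, was 0.35 with a standard error of 0.64 and a 95% interval from −1.04 to 1.74. It did not pass the test (adjusted p = 0.90, limma, adjusted by Benjamini-Hochberg over all genes tested). Without TNFdARE mouse 1 the difference was −0.01, and with limma's sample weights −0.08. In TNFdARE mouse 1, Pink1 was 3.67 times its median in the other 7 libraries, and 43 of the 409 genes above 0 in all 8 libraries, or 10.5%, had a higher ratio there. The genes most like Pink1 over the 8 mice, among 582 genes with a mean of at least 5 FPKM, were AY036118 (Pearson r = 0.93, Spearman rho = 0.90), Yam1 (0.93 and 0.88) and Tgfb1 (0.89 and 0.93). All 8 points come from the same 8 libraries, whose scale is shared by every gene, and AY036118 is the RNA that held 67.7% of the summed FPKM of TNFdARE mouse 1.

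**Figure D2:**
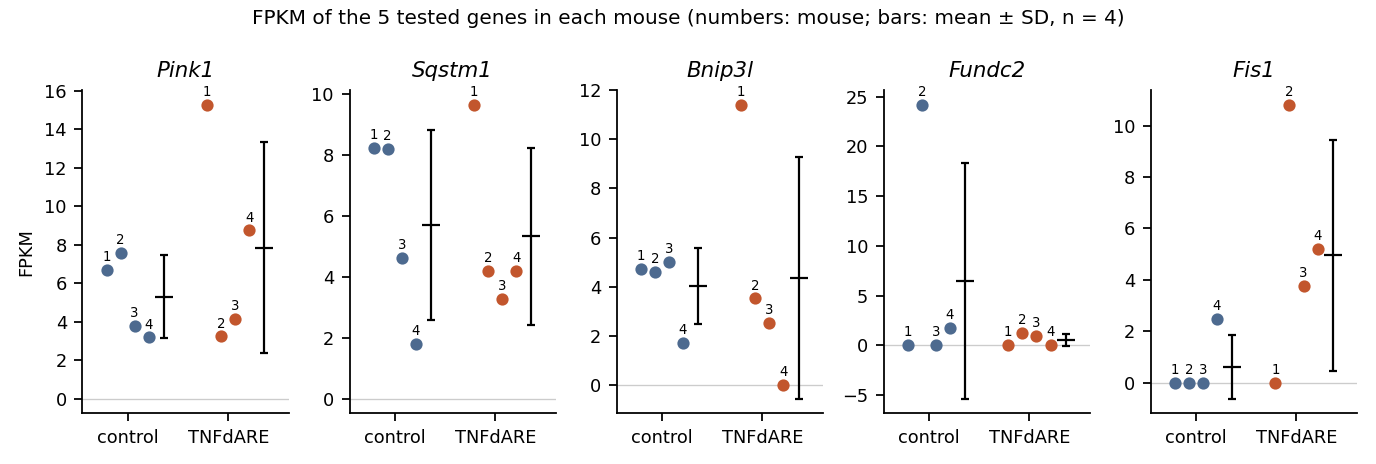
FPKM of Pink1, Sqstm1, Bnip3l, Fundc2 and Fis1 in each mouse, with control mice in blue and TNFdARE mice in orange, numbers giving the mouse and bars the mean ± SD of 4 mice. The genotypes overlap in every panel, and 1 mouse stands above the rest of its group for Pink1, Sqstm1 and Bnip3l (TNFdARE mouse 1) and for Fundc2 (control mouse 2).

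Bnip3l (ENSMUSG00000022051), the gene of the receptor also called NIX, lies at chr14:66985239-67008877 on the minus strand of mm10. It is described together with Bnip3l-ps (ENSMUSG00000073198, symbol Gm10480 in the table), an annotated transcribed processed pseudogene at chr12:18216542-18217673 on the plus strand. This copy was also listed above 0, and the fragments of both may have been divided between them. Whether the copy itself was expressed cannot be told from these values. Of the 1132 bases of the copy's transcript, 1131 align without gaps to the 3238-base Bnip3l transcript with 7 differences, an identity of 99.4%. Counted from the first base of that Bnip3l transcript, Bnip3l base first, the differences are C59T, C147T, G279A, A290G, G363A, C757G and T1006A, of which 4 lie in the coding part. The stretch below, from position 261 to 380, is coding in Bnip3l and holds 3 of them. It is shown because these are among the bases by which a fragment could be assigned to 1 gene or the other. In Bnip3l it falls in exons 2 and 3 of 6, at chr14:66999521-66999634 and chr14:66993944-66993949, and in the copy at chr12:18216765-18216884. Sequences are from GENCODE M21 transcripts, 5′ to 3′, and capitals mark the differing bases.
Bnip3l: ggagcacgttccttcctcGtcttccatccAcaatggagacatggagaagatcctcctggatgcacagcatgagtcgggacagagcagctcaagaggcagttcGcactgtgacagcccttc
Bnip3l-ps: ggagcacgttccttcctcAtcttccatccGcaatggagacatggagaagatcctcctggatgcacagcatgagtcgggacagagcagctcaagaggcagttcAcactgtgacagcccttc
Of the 983 windows of 150 bases, the read length, in the copy, 357 or 36.3% occur letter for letter in a Bnip3l transcript. The share for whole fragments, which can span more bases than a single read, was not computed. How the authors' counting treated fragments that match both genes is not given in the sources used here.

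Bnip3l was 4.72, 4.60, 5.02 and 1.72 FPKM in control mice 1 to 4 and 11.4, 3.52, 2.53 and 0 FPKM in TNFdARE mice 1 to 4. The TNFdARE mice spanned both ends: mouse 1 was above and mouse 4 below every control mouse. The means were 4.02 ± 1.54 (SD, n = 4) and 4.36 ± 4.93 (SD, n = 4), and the log2 difference was −0.35 (standard error 0.79, 95% interval −2.06 to 1.36, adjusted p = 0.92, limma, adjusted by Benjamini-Hochberg). It was 0.28 without TNFdARE mouse 4. The copy, Bnip3l-ps, was at 13.7, 5.99, 17.4 and 9.32 FPKM in control mice and at 0, 11.6, 14.1 and 0 FPKM in TNFdARE mice, so in 6 of 8 libraries its listed level per kilobase was above that of Bnip3l. The libraries with the highest and the lowest Bnip3l value, TNFdARE mice 1 and 4, were those that listed the copy at 0. The copy had a log2 difference of −1.67 (two-sided exact permutation test, p = 0.31). Adding the copy, weighted by the ratio of the transcript lengths, gave 9.48, 6.68, 11.1 and 4.96 FPKM in control mice and 11.4, 7.53, 7.44 and 0 FPKM in TNFdARE mice. With the sum, TNFdARE mouse 1 no longer stood apart from control mouse 3, and TNFdARE mouse 4 remained at 0. The log2 difference of the sum, an alternative chosen after seeing the data, was −0.67 (two-sided exact permutation test, p = 0.71). The copy's share of the estimated fragments of both genes ran from 31.1% to 65.3% in control mice and was 0%, 53.3% and 66.0% in TNFdARE mice 1, 2 and 3.

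**Figure D3:**
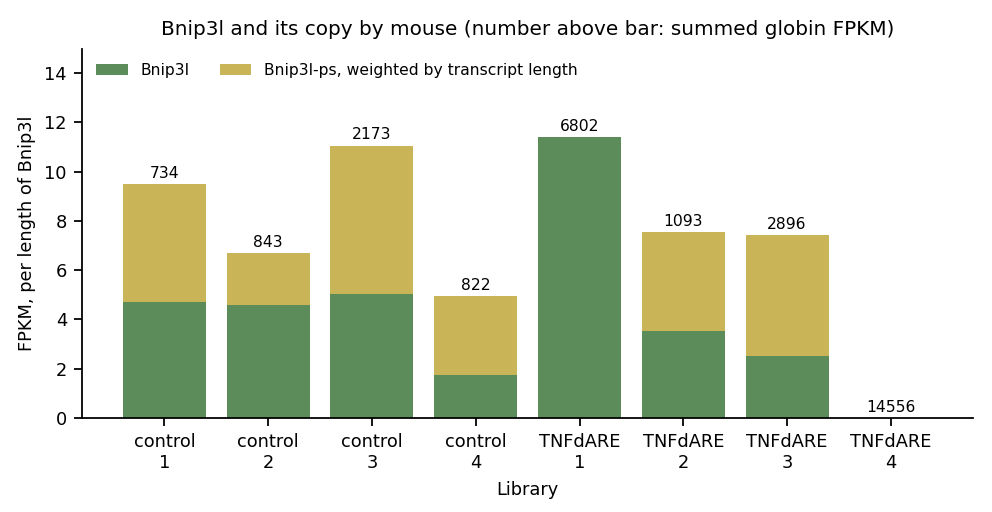
Stacked bars give, for each library, the FPKM of Bnip3l and of its copy weighted to the length of Bnip3l, with the summed FPKM of 4 globin genes printed above each bar. TNFdARE mouse 1 lists the whole signal under Bnip3l, 6 libraries divide it, and TNFdARE mouse 4, with the highest globin sum of 14556, lists 0 for both.

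BNIP3L is also abundant in red cell precursors, so the globins are given beside it. For control mice 1 to 4, Hba-a1, Hba-a2, Hbb-bs and Hbb-bt together gave 734, 843, 2173 and 822 FPKM, and for TNFdARE mice 1 to 4 they gave 6802, 1093, 2896 and 14556 FPKM. The library with the most globin RNA listed no Bnip3l, while the next, TNFdARE mouse 1, had the most. In bulk RNA, more cells of another type and more RNA per cell cannot be told apart, and the part of erythroid RNA in the Bnip3l values was not tested. The genes most like Bnip3l over the 8 mice, among 583 genes, were Pabpc1 (Pearson r = 0.97, Spearman rho = 0.93), Map3k12 (0.92 and 0.67) and Pecam1 (0.91 and 0.69), again as a description of 8 libraries that share their scale across genes.

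Bnip3 (ENSMUSG00000078566, chr7:138890836-138909519, minus strand of mm10), the hypoxia-induced paralog of Bnip3l, was listed at 0 in all 8 libraries. Transcripts of 3 other genes match it on the same strand at 95% identity or more. They align over 559 to 567 bases, where the longest coding Bnip3 transcript has 1756. Of the 3, 1, Gm16439, is in the table, also at 0 in all 8. On the opposite strand, Gm45507 overlaps 504 exonic bases of Bnip3, or 22.25%, and is not in the table. No level or difference can be stated for Bnip3. Fundc1 (ENSMUSG00000025040, chrX:17556564-17572325, minus strand), a receptor whose binding to the autophagosome is controlled by phosphorylation, was listed at 0.502 FPKM in TNFdARE mouse 3 and at 0 in the other 7 libraries. With a value in 1 library an exact permutation test cannot give a p below 1, so Fundc1, Phb2 and Usp30 are described by their values without a test. TNFdARE mouse 3 registered the most genes, and of the 2662 genes above 0 in exactly 1 library, 1350 or 50.7% were seen in that mouse.

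Fundc2 (ENSMUSG00000031198, chrX:75382399-75396459, plus strand), a paralog of Fundc1 that acts in platelet survival, was present in 2 mice of each genotype. It was at 0, 24.2, 0 and 1.70 FPKM in control mice 1 to 4 and at 0, 1.20, 0.960 and 0 FPKM in TNFdARE mice 1 to 4. Control mouse 2 held by far the highest value, and the other 3 mice in which it was detected lay between 0.960 and 1.70 FPKM. The means were 6.47 ± 11.8 and 0.539 ± 0.630 FPKM (SD, n = 4 each), a log2 difference of −0.99 (standard error 0.99, 95% interval −3.13 to 1.14, adjusted p = 0.86, limma, adjusted by Benjamini-Hochberg). Without control mouse 2 the difference was 0.05, so its sign rested on that mouse. Fundc2 also entered the tested genes through that mouse, since its TNFdARE mean was under 1 FPKM, and its difference is a description. Phb2 (ENSMUSG00000004264, chr6:124712336-124716950, plus strand), the inner-membrane prohibitin that becomes exposed to autophagosomes once the outer membrane has ruptured, was at 0.0935 FPKM in TNFdARE mouse 3 and at 0 elsewhere.

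Sqstm1 (ENSMUSG00000015837), which encodes the adaptor p62, lies at chr11:50199366-50210827 on the minus strand of mm10. It was 8.23, 8.19, 4.62 and 1.78 FPKM in control mice 1 to 4 and 9.63, 4.18, 3.25 and 4.20 FPKM in TNFdARE mice 1 to 4. Except for TNFdARE mouse 1, which was above every control mouse, the TNFdARE values sat close together inside the control range. The means were 5.70 ± 3.12 (SD, n = 4) and 5.32 ± 2.91 (SD, n = 4), and the log2 difference was −0.03 (standard error 0.65, 95% interval −1.43 to 1.37, adjusted p = 1.00, limma, adjusted by Benjamini-Hochberg). The sign of this difference turned positive with quantile normalization (0.25) and with median-of-ratios scaling (0.03). Of its exonic bases 580, or 17.3%, overlap Mrnip on the opposite strand, which was at 0.142 FPKM in control mouse 1 and at 0 elsewhere, and whether counting used the strand is not given in the sources used here. The genes most like Sqstm1 among 582 were Mmd (Pearson r = 0.88, Spearman rho = 0.86), Tubb6 (0.87 and 0.86) and Gclm (0.86 and 0.83). Optn (ENSMUSG00000026672, chr2:5020642-5064051, minus strand), the adaptor optineurin, was at 0.334 and 0.0972 FPKM in TNFdARE mice 2 and 3 and at 0 in the other 6 libraries, which is too few values for a test (the smallest two-sided exact permutation p they allow is 0.43). Those are the 2 libraries with the most genes above 0.

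The kinase and the adaptor could be set against each other within each mouse. Dividing the FPKM of Pink1 by that of Sqstm1 gave ratios of 0.811, 0.924, 0.819 and 1.79 for control mice 1 to 4 and 1.58, 0.772, 1.28 and 2.08 for the 4 TNFdARE mice in order of their numbers. Of the TNFdARE mice 3, and of the control mice 1, had more Pink1 than Sqstm1 per kilobase. A ratio within a library does not depend on that library's scale, and its log2 value differed by 0.39 between the genotypes, within the spread of the mice (two-sided exact permutation test, p = 0.40).

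Fis1 (ENSMUSG00000019054, chr5:136953275-136966234, plus strand of mm10), a tail-anchored outer-membrane protein that recruits fission and mitophagy factors, had the largest difference of the 5 genes tested. It was at 0, 0, 0 and 2.49 FPKM in control mice 1 to 4 and at 0, 10.8, 3.77 and 5.21 FPKM in TNFdARE mice 1 to 4. The 3 TNFdARE mice with a value were each above the 1 control mouse with a value, but TNFdARE mouse 1 was at 0, so the groups overlapped. The means were 0.622 ± 1.24 and 4.95 ± 4.49 FPKM (SD, n = 4 each). The log2 difference was 1.66 with a standard error of 0.86 and a 95% interval from −0.19 to 3.51, and it did not pass the test (adjusted p = 0.86, limma, adjusted by Benjamini-Hochberg; exact permutation p = 0.14, two-sided). Fis1 entered the tested genes through the TNFdARE group, since its control mean was under 1 FPKM, so its difference, interval and p are descriptions and support nothing. Over 18 other settings, the difference ran from 0.73 to 3.27, at pseudocounts of 5 and 0.1. With 1 mouse left out, the value was lowest without TNFdARE mouse 2, at 1.18, and the fit without TNFdARE mouse 1, the library with the fewest genes above 0, gave 2.37. Usp30 (ENSMUSG00000029592, chr5:114065461-114124720, plus strand), the outer-membrane deubiquitinase that opposes Parkin, was at 0.796 FPKM in control mouse 3 and at 0 in the other 7 libraries.

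Ordered by mean FPKM over all 8 mice, Pink1 came first at 6.57 ± 4.10 (SD), followed by Sqstm1 at 5.51 ± 2.80, Bnip3l at 4.19 ± 3.38, Fundc2 at 3.51 ± 8.39 and Fis1 at 2.79 ± 3.83. The other 5 genes averaged 0.0995 FPKM or less. The order of the means was not the same in both genotypes, a difference that was not tested. In control mice Fundc2 (6.47) and Sqstm1 (5.70) had higher means than Pink1 (5.30), the first through control mouse 2, and in TNFdARE mice Pink1 (7.85) was followed by Sqstm1 (5.32), Fis1 (4.95) and Bnip3l (4.36). Without TNFdARE mouse 1, Pink1 averaged 5.33, Sqstm1 4.92, Fundc2 4.01, Fis1 3.18 and Bnip3l 3.16, so that Bnip3l moved from rank 3 to rank 5. Bnip3l stands in this order and its tests without the copy Bnip3l-ps. With the copy added by length, its mean was 8.04 FPKM in control mice, above the other members. In TNFdARE mice that sum averaged 6.59 FPKM, below Pink1. The first 4 genes of the pooled order did not differ from their neighbors beyond the spread of the mice. Pink1 was above Sqstm1 in 4 of 8 mice (two-sided exact sign-flip permutation test on log2 values, p = 0.30), Sqstm1 above Bnip3l in 6 of 8 (p = 0.094, same exact test), and Bnip3l above Fundc2 in 6 of 8 (p = 0.14, same exact test). Below these, ties at 0 left at most 5 mice with a difference, for which the smallest two-sided exact permutation p is 0.0625, so no test is given: Fundc2 was above Fis1 in 1 mouse and below it in 4, and Fis1 was above Usp30 in 4 mice and below it in 1. Within their libraries Pink1, Bnip3l and Sqstm1 were of middle to upper rank among the genes above 0. Pink1 exceeded between 63.9% and 87.5% of them, Bnip3l, in the 7 libraries with a value, between 56.5% and 82.3%, and Sqstm1 between 54.0% and 85.4%. Optn and Phb2, where listed, exceeded at most 26.7%.

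Set against the whole table, the 10 genes showed no difference between genotypes that passed a test. Of the 10, 5 reached a mean of 1 FPKM over the 8 mice and were tested among 1534 genes, and the other 5 (Bnip3, Fundc1, Optn, Usp30 and Phb2) were not. Fundc2 and Fis1 passed this filter with values in 4 of 8 libraries each, carried largely by control mouse 2 for Fundc2 and by TNFdARE mice for Fis1. Of the 5 tested, 0 had an unadjusted limma p under 0.05, where 69 of 1534 genes, or 4.5%, did (1.76% higher and 2.74% lower in TNFdARE platelets). After adjustment, 0 genes of the table, or 0%, were under 0.05, and the smallest adjusted p was 0.86 (limma, adjusted by Benjamini-Hochberg). Groups that do not overlap were seen for 0 of these 5 genes, against 51 or 3.32% of the genes tested. The median log2 difference of all genes tested was −0.30, with 37.0% of genes higher in TNFdARE platelets. It was −0.06 after quantile normalization, −0.011 with sample weights, 0.0088 with no filter on the mean, −0.14 without TNFdARE mouse 1 and −0.41 without TNFdARE mouse 3. Relative to the reported median of −0.30, the tested genes stood at 1.96 for Fis1, 0.65 for Pink1, 0.27 for Sqstm1, −0.06 for Bnip3l and −0.70 for Fundc2. The values of Fis1 and Fundc2 on this scale carry the same limit of the filter. The narrowest of the 5 intervals, that of Pink1, ran from −1.04 to 1.74, so differences inside such a range could not be told from the spread between mice.

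**Figure D4:**
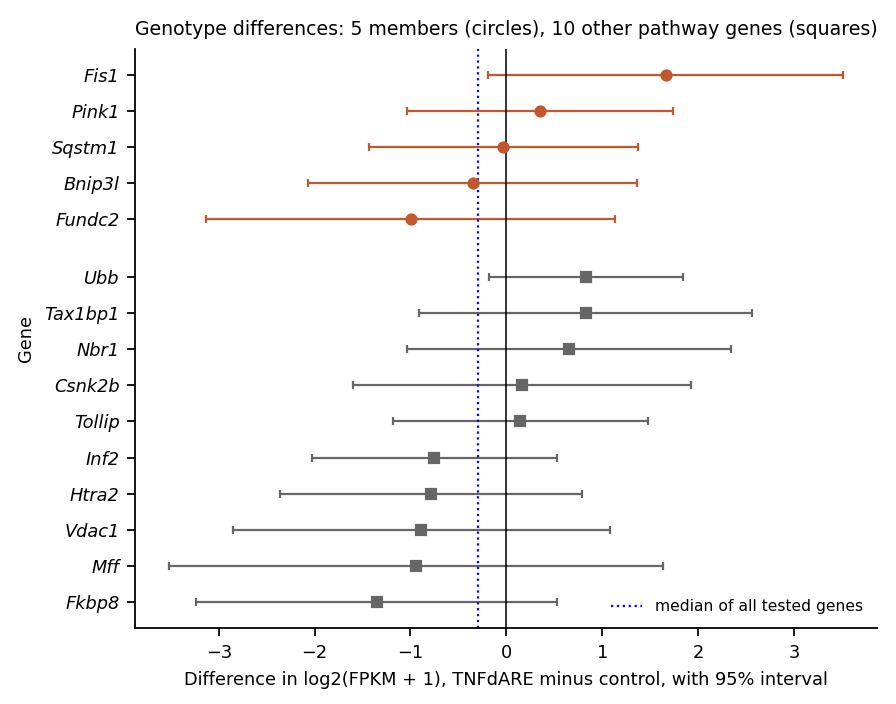
Log2 differences in FPKM + 1 between TNFdARE and control platelets with 95% intervals, for the 5 tested mitophagy genes (circles) and the 10 tested genes of the wider pathway (squares). Every interval crosses 0, and the dotted line marks the median of all 1534 genes at −0.30.

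The genotype difference was also compared between the sexes. In females and males, with 2 mice of each genotype per sex, the log2 difference was 0.18 and 0.52 for Pink1, −0.89 and 0.19 for Bnip3l, −0.15 and −1.84 for Fundc2, 2.20 and 1.13 for Fis1, and 0.04 and −0.10 for Sqstm1. Bnip3l and Sqstm1 had opposite signs in the sexes, but none of the 5 interactions passed the test, with adjusted p from 0.93 to 0.99 (limma, adjusted by Benjamini-Hochberg). The female value of Bnip3l includes TNFdARE mouse 4 and its listed 0, and the male value of Fundc2 includes control mouse 2 at 24.2 FPKM. Fundc2 and Fis1 are given here as descriptions, with the limit of the filter stated above. Across the table, 54 genes or 3.52% had an unadjusted interaction p under 0.05 and 0 genes or 0% an adjusted one (limma).

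How far single mice and processing choices moved each gene is shown in the plot of alternatives. Pink1, Sqstm1 and Bnip3l crossed 0, Fundc2 crossed it without control mouse 2, and Fis1, which was filtered in through its TNFdARE values, lay above it.

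**Figure D5:**
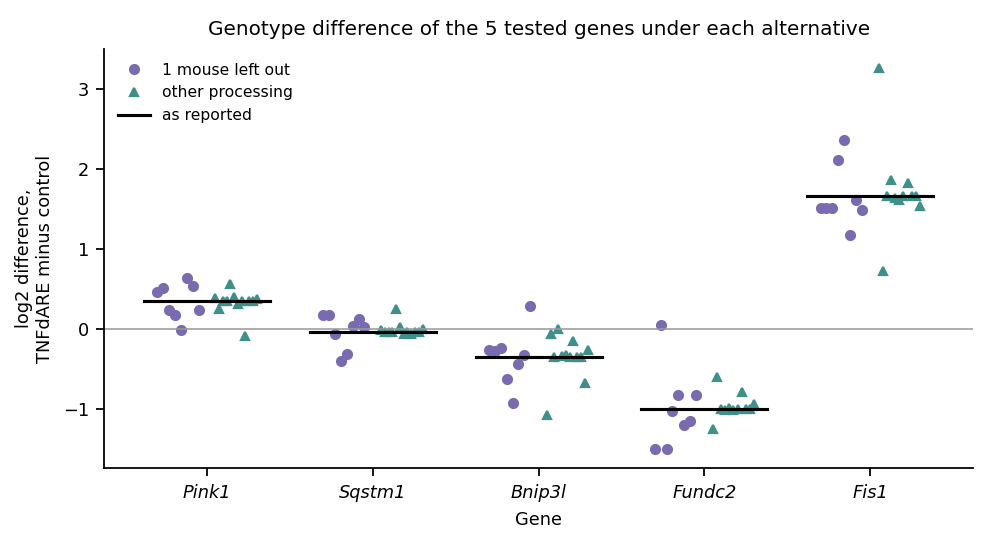
Log2 difference between TNFdARE and control platelets for each of the 5 tested genes as reported (black line), with 1 mouse left out (circles) and with other processing (triangles). Fis1 ranges from 0.73 to 3.27 and the other 4 genes each have values on both sides of 0.

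The wider pathway was described from 6 lists of 61 genes in the table, of which 42 were above 0 in at least 1 library and 10 were tested. Of these 10, 5 were higher, including 2 that entered through their TNFdARE values, and 5 lower, where 37.0% of all genes tested were higher. An unadjusted limma p under 0.05 was seen for 0 of the 10, against 4.5% of all genes tested. Groups that do not overlap were seen for 0 of the 10, against 3.32%. No median is read from these 10 genes, since it would include the 2 that entered through the TNFdARE group. In the PINK1-Parkin ubiquitin arm, 20 genes were in the table and 5 were tested. Of these, the adaptor genes Nbr1 and Tax1bp1 had control means of 0.198 and 0.935 FPKM and reached a mean of 1 FPKM through the TNFdARE group (7.20 FPKM in TNFdARE mouse 2 for Nbr1 and 9.32 FPKM in TNFdARE mouse 1 for Tax1bp1), so their higher direction follows from the filter and no median is read from this list. Park2, which encodes Parkin, was listed at 0 in all 8 libraries. Ubb, a polyubiquitin gene, had the highest level, at 24.2, 18.1, 34.3 and 20.2 FPKM in control mice 1 to 4 and 57.1, 37.4, 30.7 and 50.1 FPKM in TNFdARE mice 1 to 4. Of the TNFdARE mice, 3 of 4 were above every control mouse, and the log2 difference was 0.83 (standard error 0.47, adjusted p = 0.86, limma, adjusted by Benjamini-Hochberg). The highest Ubb values were those of TNFdARE mice 1 and 4, whose globin sums were 6802 and 14556 FPKM and which had 818 and 1225 genes above 0, and the part of erythroid RNA in them was not tested. Ubb shares sequence with other ubiquitin copies in the table, Gm1821 and Gm8797, which were at most 5.53 and 4.43 FPKM. How shared fragments were treated is not given, so these levels set no limit on the uncertainty of Ubb. Tollip, a ubiquitin-binding adaptor, differed by 0.15 (standard error 0.62), and Vdac1, an outer-membrane channel that Parkin ubiquitinates, by −0.89 (standard error 0.91).

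Among other receptors, 6 genes were in the table and 1 was tested. This was Fkbp8, an outer-membrane receptor, at 3.43, 27.3, 16.4 and 20.2 FPKM in control mice and 0, 12.1, 7.32 and 9.04 FPKM in TNFdARE mice. Every TNFdARE value lay below those of control mice 2, 3 and 4, and control mouse 1 lay below 3 of the TNFdARE mice, for a log2 difference of −1.35 (standard error 0.87, adjusted p = 0.86, limma, adjusted by Benjamini-Hochberg). In the fission and fusion list, 11 genes were in the table and 2 were tested. Mff, a receptor for the fission dynamin, was at 0, 65.0, 18.1 and 12.5 FPKM in control mice and 0, 21.8, 6.87 and 5.94 FPKM in TNFdARE mice, a log2 difference of −0.94 (standard error 1.19). Mff shares 196 identical bases with C430014B12Rik on the opposite strand, which was at up to 17.2 FPKM and at 7.45 FPKM in TNFdARE mouse 4, above Mff there, so the Mff values are uncertain while the strand setting is unknown. Inf2, a formin that assembles actin at fission sites, was at 6.95, 7.60, 5.99 and 6.60 FPKM in control mice and 1.69, 4.67, 6.27 and 3.09 FPKM in TNFdARE mice, a difference of −0.75 (standard error 0.59). Inf2 was thus lower than every control value in 3 of 4 TNFdARE mice, but TNFdARE mouse 3 lay within the control range. Of the 5 inner-membrane proteases, 1 was tested, Htra2 (−0.79, standard error 0.73), which shares sequence with Aup1 and Loxl3 on the opposite strand, and Parl, which cleaves PINK1, was at 0 in all 8 libraries. Of the 11 kinases and regulators, 1 was tested, Csnk2b (0.16, standard error 0.82). None of the 8 genes of the TOM import complex, through which PINK1 enters mitochondria, reached a mean of 1 FPKM, and 2 of them were above 0 in any library.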

How the data were processed

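Platelet RNA of 4 TNFdARE and 4 control mice was sequenced by the authors as 150 bp reads. The deposited table holds normalized expression for each mouse. The authors' unit was inferred to be FPKM, since the submitters' processing notes name Cufflinks and column totals differ. The methods for the spatial data name CPM and refer to the bulk data for it, but CPM columns would share 1 total. The notes name mm10. Versions, strand setting and handling of shared fragments are not given in the sources used here. Read totals are unknown, so no counting interval was computed, and 0 value columns were left unmapped.

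Genes with a mean of at least 1 FPKM (1534 of 43548) were compared on log2(FPKM + 1), which understates differences of low genes, with limma 3.58.1 in R 4.3.3 (trended empirical Bayes, Benjamini-Hochberg adjustment over all genes tested, two-sided, no covariate). On simulated data for this comparison and its 1534 genes, 59.5% of 200 genes changed by 3 on the log2 scale passed after adjustment, beside 1 false call. In the real libraries, the share of tested genes listed at 0 ran from 6.98% in TNFdARE mouse 3 to 58.3% in TNFdARE mouse 1. How that 59.5% carries over to libraries with so many zeros was not tested. Single genes were compared by two-sided exact permutation tests over 70 arrangements, whose smallest p is 0.029. The members and lists were chosen with earlier results of these data known. Named genes are the 10 members, up to 3 genes of each pathway list with the highest mean among those tested, and, for members above 0 in at least 5 libraries, the 3 genes with the highest Pearson r. Bnip3l-ps, Nbr1, Tax1bp1, Park2 and Parl fall outside this rule and were picked with their values known. Cell markers, globins, Tnf, Hprt and Gapdh, and other genes named for shared or overlapping sequence, also fall outside it. Alternatives were other pseudocounts, filters, scalings, weights, covariates, a replicate block and leaving out each mouse. Positions and transcripts are from GENCODE M21 (42384 of the identifiers matched), similar transcripts were found with BLAST 2.17.0 at 95% identity over at least 150 bases, and figures were drawn with matplotlib 3.10.9 in Python 3.11.15.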

Additional observations from a re-analysis of the deposited data

Results flagged for a closer look

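In 14 groups of 4 mice, each a member gene above 0 in at least 1 mouse of 1 genotype, the highest or lowest mouse was set against the others by its gap to the nearest mouse as a share of the group's range. A far-lying mouse was seen in 7 of them. Chance gives about 1 in 20 for values without ties, a rate that does not hold where several mice are at 0. In 4 of the 7 the mouse was the only one of its group above 0, so the gap was 1 of the range by construction: Fis1 in control mouse 4 (2.49 FPKM), Usp30 in control mouse 3 (0.796 FPKM), and Fundc1 (0.502 FPKM) and Phb2 (0.0935 FPKM) in TNFdARE mouse 3. Fundc2 in control mouse 2 lay above its group at 24.2 FPKM, with a gap of 0.930 of the range, in a group with 2 mice at 0. Bnip3l was low in control mouse 4 at 1.72 FPKM, with a gap of 0.872, and Sqstm1 in TNFdARE mouse 1 lay above the other TNFdARE mice at 9.63 FPKM, with a gap of 0.852.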

How the results depend on the processing

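No gene of the table reached an adjusted p under 0.05 by limma in any of 19 alternatives. The reported 69 genes with an unadjusted p under 0.05 became 36 at a mean of at least 5 FPKM and 111 with sample weights, and 46 to 75 with 1 mouse left out. The share of these that were higher in TNFdARE platelets, 39.1%, was 57.6% with quantile normalization (34 higher, 25 lower), 66.7% with sample weights, 56.5% without TNFdARE replicate 1 or 4, and 16.3% without control replicate 1 (8 higher, 41 lower). Of the 5 tested members, 0 passed as reported and 1, Fis1, passed at an unadjusted p under 0.05 with quantile normalization (1.86), sample weights (1.83), without control replicate 4 (2.11) and without TNFdARE replicate 1 (2.37), so the count ran from 0 to 1 over the mice left out. Fis1 entered the tested genes through its TNFdARE values, so these passes support nothing. Signs turned for Bnip3l with quantile normalization (0.0029) and without TNFdARE replicate 4 (range over mice −0.93 to 0.28), for Fundc2 without control replicate 2 (−1.50 to 0.050), for Pink1 with sample weights (−0.084) and without TNFdARE replicate 1 (−0.013 to 0.64), and for Sqstm1 with quantile normalization (0.25), median-of-ratios scaling (0.027), the library-name block below (0.0077) and 5 of the 8 mice left out (−0.40 to 0.18). The causes were not tested. With the replicate number as a block, 64 genes and 0 members had an unadjusted p under 0.05. Same-numbered mice did not deviate together (correlations −0.07 to 0.06). Correlations near 0 cannot settle whether the numbers pair the mice, and the labels do not say. The library names of control 1 and TNFdARE 1, and of control 4 and TNFdARE 3, also share a number whose meaning the labels do not give. These pairs correlated at 0.060 and 0.042, and using that number as a block, a choice made after seeing the data, gave 86 genes and 0 members. With unknown read depth, a listed 0 limits Bnip3, Fundc1, Optn, Usp30 and Phb2 to a statement of where they were listed.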
